A study of Mus musculus with 15 samples.

Results

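Hippocampi of mice that lack the mineralocorticoid receptor were compared here directly with hippocampi of mice that lack the glucocorticoid receptor. The members are 8 of the 15 arrays of the study, chosen by their sample titles: 4 MREmx1-cre and 4 GREmx1-cre. Each array holds RNA of the whole hippocampus, both hemispheres, of male C57BL/6 mice aged about 2.5 months. By the study's design, Emx1-cre deletes floxed Nr3c2, the gene of the mineralocorticoid receptor (MR), in the MREmx1-cre line and floxed Nr3c1, the gene of the glucocorticoid receptor (GR), in the GREmx1-cre line. The remaining arrays are 4 of dflox, the controls in which both genes are floxed but no Cre is present, and 3 of GRMREmx1-cre, in which both genes are deleted. They entered the model for its estimate of the spread and are given beside the direct comparison. The full genotypes of the mice are not given in the sources used here, and nothing states how many animals stand behind an array, so the p-values measure the spread between these arrays.

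GR and MR are ligand-activated transcription factors that bind the same hormone, corticosterone, and closely related DNA sequences. MR binds it with the higher affinity and is thought to be occupied at rest, whereas GR fills when the hormone rises with stress or the daily cycle. The hippocampus is known for carrying both receptors in its principal neurons, with MR particularly abundant there. Emx1-Cre acts in the lineage of the dorsal telencephalon, which gives rise to excitatory neurons and to many astrocytes and oligodendrocytes, but not to microglia, endothelium or most interneurons.

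Levels below are log2 intensities minus the array's own 75th percentile, and differences are MREmx1-cre minus GREmx1-cre with the standard error (SE) of the limma fit, so that a positive difference means a higher level in the MR knockout. A gene was called where its adjusted p, limma's after Benjamini-Hochberg adjustment over all genes tested, was below 0.05. Between 68.4% and 73.4% of probes were well above background on the 8 arrays, and no spot was saturated. Each genotype lay alone on its own slide, so that throughout the results the slide and the genotype cannot be told apart. A pair of arrays stood apart from their groups. On MREmx1-cre replicate 2, the 16 choroid plexus markers had a mean of -3.98 relative to their mean over all arrays, while the remaining MREmx1-cre arrays had 0.10 to 1.03. On GREmx1-cre replicate 1, the mean of 11 thalamus and habenula markers was 0.40, while the remaining GREmx1-cre arrays had -0.22 to -0.18. The median over the same markers on that array was -0.19, within the -0.21 to -0.08 of the other GREmx1-cre arrays, so that a few members carried its mean. Over all genes with a value on every array, GREmx1-cre replicate 1 correlated with the other GREmx1-cre arrays by 0.981 to 0.983. Those arrays correlated with each other by 0.991 to 0.992. It had 188 outlier spots, against 58 to 74 on the other GREmx1-cre arrays. Counts are therefore given also without both arrays, and calls are described as kept where they held whichever of the 15 arrays was left out. Their part in the results was not tested beyond that. Markers of the main hippocampal cell classes were present, with all 22 dentate granule cell markers, all 13 CA1 markers and all 20 astrocyte markers tested well above background on all 8 arrays.

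The deleted genes were examined first. Nr3c1 had levels of -0.66, -0.53, -0.64 and -0.58 on the GREmx1-cre arrays and of 2.28, 2.16, 2.08 and 2.17 on the MREmx1-cre arrays. The groups lay far apart, and the difference of 2.78 ± 0.08 (6.85-fold; limma, adjusted p = 9.19e-10) was matched in sign by the 3 other Nr3c1 probes, at 2.30 to 2.54. Relative to dflox, Nr3c1 was lower in GREmx1-cre (-2.24) and higher in MREmx1-cre (0.54 ± 0.08; limma, adjusted p = 0.00165).

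Nr3c2 was a dim probe, with levels of -3.09, -3.15, -3.06 and -3.04 in GREmx1-cre and of -3.76, -3.68, -3.59 and -3.46 in MREmx1-cre. All MREmx1-cre arrays were below all GREmx1-cre arrays, with a difference of -0.54 ± 0.09 (1.45-fold lower; limma, adjusted p = 0.00203). This call was lost with the background of the median signals modelled by normexp. The dflox mean of -3.51 was close to the MREmx1-cre mean of -3.62, and that difference was not called (-0.11; adjusted p = 0.480), while Nr3c2 in GREmx1-cre was higher than in dflox (0.42; adjusted p = 0.0212). The 2 other Nr3c2 probes had differences between the knockouts of -0.54 and -1.29, and lay 0.38 and 0.77 log2 units lower in MREmx1-cre than in dflox, untested. The files do not say whether these probes lie in the deleted part of the gene, so they give no direct check of the deletion, and MREmx1-cre refers throughout to the libraries so labelled. Thus, in each single knockout the receptor gene that was not deleted had a level above dflox. Both genes are floxed in dflox, and the alleles of the spared gene in the single knockouts are not given. An effect of the floxed allele on these levels was not tested and cannot be told apart here from an effect of the other receptor's loss.

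**Figure D1:**
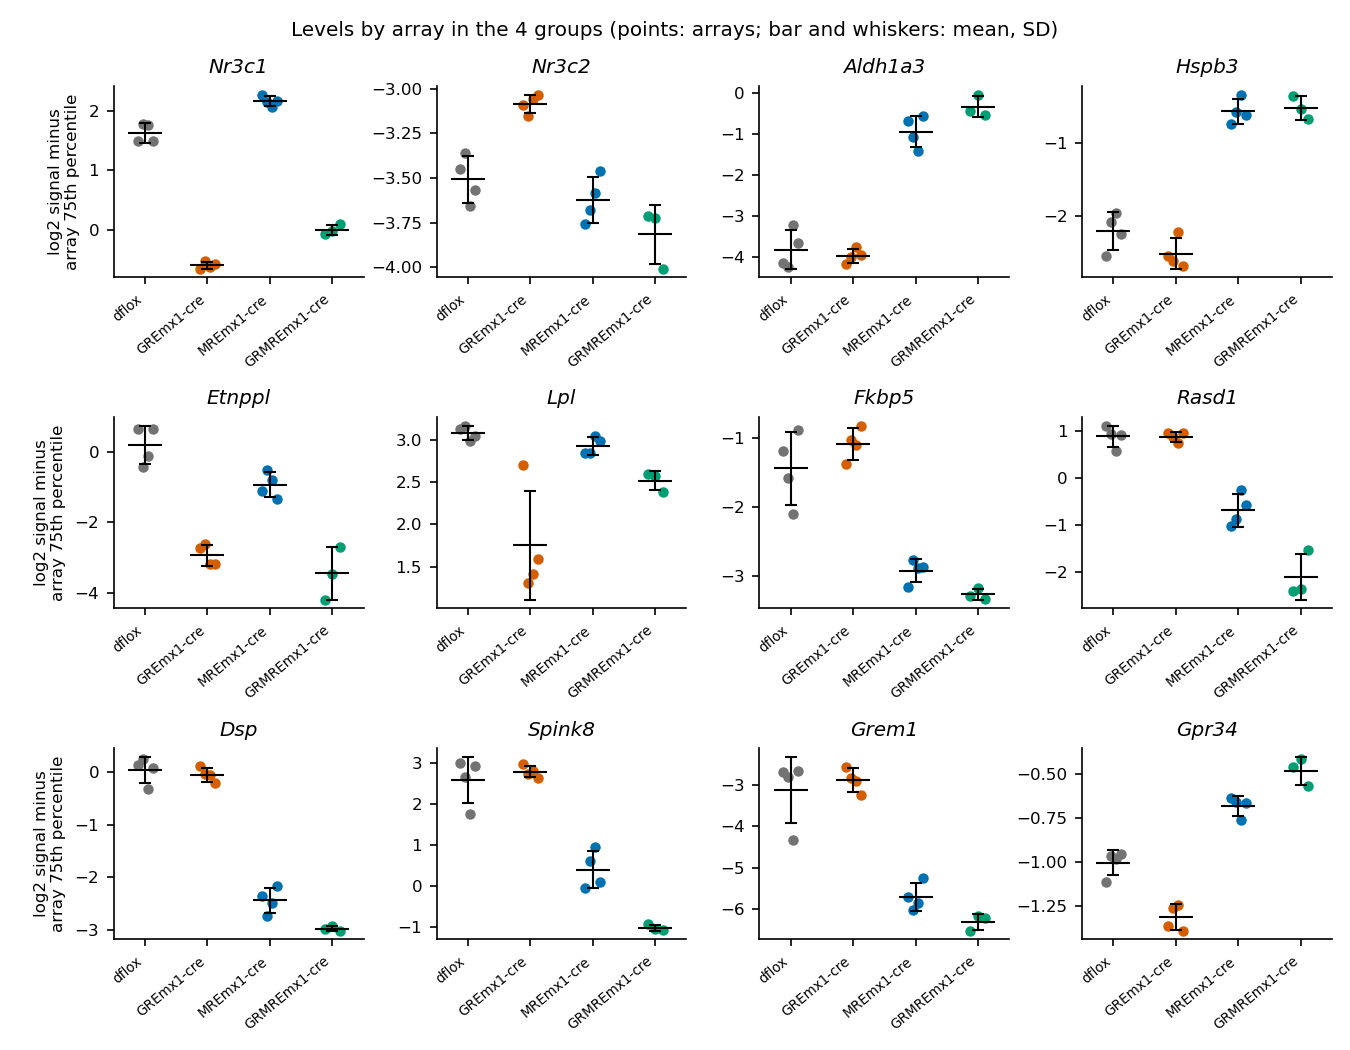
Levels of 12 genes by array: the y axis is log2 signal minus the array's 75th percentile, the x axis the 4 groups, points are arrays, and the bar with whiskers is the mean with SD (n = 4, 4, 4 and 3). For Fkbp5, Rasd1, Dsp, Spink8 and Grem1 the MREmx1-cre arrays lie below and the GREmx1-cre arrays beside dflox, whereas for Etnppl and Lpl the GREmx1-cre arrays lie lowest of the single knockouts.

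Of 22872 genes tested, 2134 (9.33%) were called, 1124 higher in MREmx1-cre (4.91%) and 1010 lower (4.42%). A difference of at least 1.5-fold was reached by 493 called genes (2.16%), of which 208 were higher and 285 lower in MREmx1-cre. In 3620 genes (15.8%) the 4 arrays of one knockout lay wholly above the 4 of the other. Of the 2134 calls, 1132 were kept whichever array was left out, as were 393 of the 493 larger ones. Without GREmx1-cre replicate 1 and MREmx1-cre replicate 2 the count was 1104, and with the background of the median signals modelled by normexp it was 173. Scaling to the median in place of the 75th percentile gave 1079 higher and 621 lower.

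The level in the controls tells on which side a gene moved. Among the 493 genes called with at least 1.5-fold, the dflox mean was nearer to GREmx1-cre in 375 (76.1%), against 51.8% of all genes tested. For the same genes the mean of GRMREmx1-cre, which lacks both receptors, was nearer to MREmx1-cre in 441 (89.5%), against 61.0% of all genes tested. By the fit, 1556 genes (6.8%) were called between MREmx1-cre and dflox and 721 (3.15%) between GREmx1-cre and dflox. These comparisons share the dflox arrays and the second count was the less steady: it fell to 266 without dflox replicate 3, 324 without GREmx1-cre replicate 4, 332 without GREmx1-cre replicate 3, 463 without GREmx1-cre replicate 1 and 469 without dflox replicate 1, while the first was 1013 without dflox replicate 1 and 1012 without MREmx1-cre replicate 4. With scaling to the array median the counts were 1029 for MREmx1-cre and 440 for GREmx1-cre, and with quantile normalization that for GREmx1-cre was 467.

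**Figure D2:**
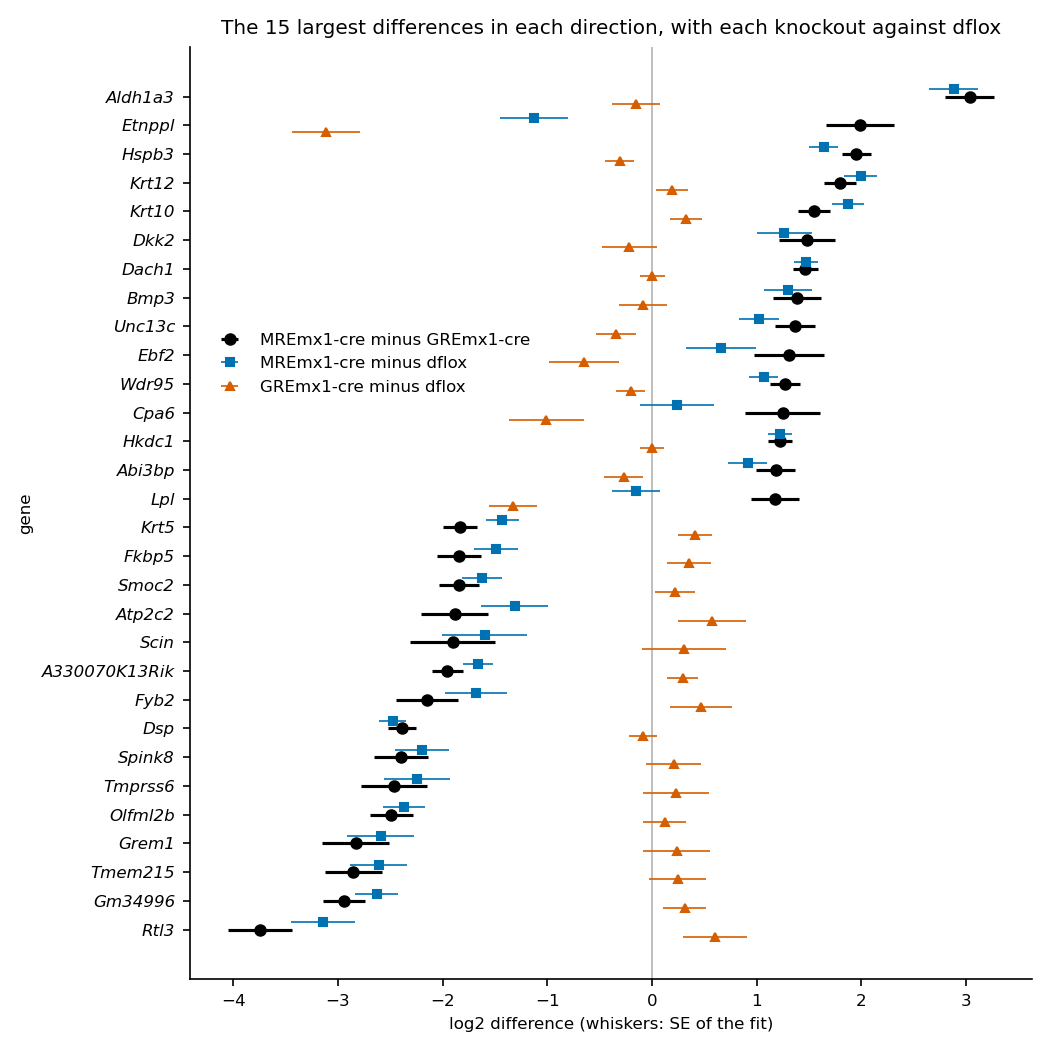
The 15 largest named differences in each direction: the x axis is the log2 difference with the SE of the fit, the y axis the gene, black circles MREmx1-cre minus GREmx1-cre, blue squares MREmx1-cre minus dflox and orange triangles GREmx1-cre minus dflox. Most blue squares lie close to the black circles, and Etnppl and Lpl are the genes whose orange triangles lie furthest below 0.

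The 15 largest differences in each direction were taken among genes with a symbol outside the neighbourhoods of the receptor genes. They had to be called without overlap between the knockouts, and the brighter group had to be well above background on all of its arrays. Towards MREmx1-cre the largest was that of Aldh1a3, an enzyme that makes retinoic acid from retinaldehyde. Its levels were -4.17, -3.99, -3.75 and -3.94 in GREmx1-cre and -0.69, -1.06, -1.42 and -0.56 in MREmx1-cre, a difference of 3.03 ± 0.23 (8.18-fold; limma, adjusted p = 1.51e-05). The dflox mean of -3.81 lay beside GREmx1-cre. Hspb3, a small heat shock protein, followed the same course, with -2.68 to -2.21 in GREmx1-cre and -0.74 to -0.33 in MREmx1-cre (1.95 ± 0.14; 3.87-fold; adjusted p = 1.15e-05). Keratins of epithelial filaments were also on this side: Krt12 differed by 1.80 (3.48-fold) and Krt10 by 1.55 (2.92-fold). In MREmx1-cre both were called above dflox, by 1.99 and 1.87.

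The transcription factor Dach1 had levels of -0.53 to -0.08 in GREmx1-cre and of 1.09 to 1.29 in MREmx1-cre (1.46 ± 0.12; 2.76-fold), without overlap. These are values of its brightest probe, and with the mean of all its probes the call was lost (limma, adjusted p = 0.119). Secreted regulators of growth factor signalling were among the same 15 genes: Dkk2, which modulates Wnt receptors, at 1.48 (2.79-fold), and Bmp3, a member of the bone morphogenetic protein family, at 1.38 (2.61-fold). Unc13c, a synaptic vesicle priming factor, differed by 1.36 and Hkdc1, a hexokinase-like enzyme, by 1.22 (2.33-fold). The rule also took Wdr95 (1.27), Abi3bp (1.18; a dim probe, well above background on 1 of 4 GREmx1-cre arrays), Ebf2 (1.31) and Cpa6 (1.25). The calls of Ebf2 and Cpa6 were the unsteady ones of the 30 genes, lost in 6 and 11 of the 15 analyses that left out an array.

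The remaining genes of the 15, Etnppl and Lpl, differed from the others in where dflox lay. Etnppl, an astrocyte enzyme that breaks down phosphoethanolamine, had levels of -2.74, -2.60, -3.17 and -3.19 in GREmx1-cre, of -1.10, -0.52, -0.80 and -1.32 in MREmx1-cre and a mean of 0.19 in dflox. It was 3.97-fold higher in MREmx1-cre than in GREmx1-cre (1.99 ± 0.32; limma, adjusted p = 0.00227). Relative to dflox it was called lower in GREmx1-cre (-3.11; adjusted p = 0.000563), and the difference of MREmx1-cre from dflox missed the threshold (-1.13; adjusted p = 0.0563). Its mean in GRMREmx1-cre was -3.44. Lpl, lipoprotein lipase, had levels of 2.70, 1.31, 1.41 and 1.6 in GREmx1-cre and of 2.84, 2.84, 3.05 and 2.99 in MREmx1-cre (1.18 ± 0.23; adjusted p = 0.00725). The array with 2.70 was GREmx1-cre replicate 1, without which the difference was 1.49.

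The next 4 genes were not among the 15 largest. S100a10 was taken as a member of the list of reactive astrocyte genes, and the others were chosen after their values were seen. Cyp4f15, a fatty acid hydroxylase, lay between -1.12 and -0.85 in GREmx1-cre and between -0.11 and 0.44 in MREmx1-cre, with a dflox mean of 0.12 (difference 1.14 ± 0.15; adjusted p = 0.000588). The chemokine gene Ccl17 differed by 0.88 (1.83-fold), with a dflox mean of -1.74 against -3.06 in GREmx1-cre and -2.18 in MREmx1-cre. In the opposite direction, S100a10, which carries membrane proteins to the cell surface with annexin, was lower in MREmx1-cre (-0.73 ± 0.08; adjusted p = 0.000274), with means of 2.67 in GREmx1-cre, 1.93 in MREmx1-cre, 2.0 in dflox and 3.06 in GRMREmx1-cre. The noncoding RNA Crnde was 3.02-fold lower in MREmx1-cre (adjusted p = 0.000595), and both knockouts were called above its dflox mean of -5.84. Crnde and Ccl17 lie on the chromosome of Nr3c2, beyond the neighbours described below.

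Towards GREmx1-cre, the largest difference by the same rule was that of Rtl3, a gene derived from a retrotransposon. It was well above background on all 4 GREmx1-cre arrays (-4.18, -5.00, -5.10 and -5.28) and on none of the MREmx1-cre arrays, so that it was at least 6.33-fold lower in MREmx1-cre. This bound sets the GREmx1-cre mean against a floor for MREmx1-cre. The floor is the mean over its arrays of the dimmest signal that still counted as well above background there, or of the probe's own signal where that was higher, on normalised log2 values. Tmem215, a membrane protein, was likewise at least 4.80-fold lower in MREmx1-cre and on none of its arrays well above background. The calls of Rtl3 and Tmem215 were both lost with normexp, so these differences depend on the background model. The noncoding transcript Gm34996 had levels of -1.36 to -1.20 in GREmx1-cre and of -4.45 to -4.03 in MREmx1-cre (-2.94 ± 0.20; 7.68-fold; adjusted p = 1.15e-05).

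Grem1, an extracellular antagonist of bone morphogenetic proteins, had levels of -2.56, -2.82, -2.89 and -3.25 in GREmx1-cre and of -5.71, -6.02, -5.85 and -5.25 in MREmx1-cre (-2.83 ± 0.32; 7.10-fold; adjusted p = 0.000278). The matrix proteins Olfml2b (-2.49; 5.61-fold) and Smoc2 (-1.84; 3.59-fold) did not overlap between the groups either, and a second probe of each had a difference of -2.62 and -1.89. Tmprss6, a membrane serine protease, differed by -2.47, and Spink8, a serine protease inhibitor used as a CA1 marker, by -2.40 ± 0.26 (5.27-fold). Spink8 levels were 2.98, 2.74, 2.82 and 2.65 in GREmx1-cre and -0.06, 0.61, 0.94 and 0.10 in MREmx1-cre, with a GRMREmx1-cre mean of -1.02.

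Dsp, desmoplakin, the desmosomal linker that also marks dentate granule cells, had levels of 0.12, -0.04, -0.06 and -0.21 in GREmx1-cre and of -2.35, -2.73, -2.50 and -2.16 in MREmx1-cre. Its difference of -2.39 ± 0.13 (5.24-fold; adjusted p = 1.64e-06) was seen also by a second probe (-2.45), and its dflox mean was 0.04. Krt5, a basal keratin, was lower in MREmx1-cre (-1.84; 3.57-fold), the reverse of Krt10 and Krt12. Scin, an actin-severing protein, differed by -1.90, and Atp2c2, a calcium and manganese pump of the secretory pathway, by -1.88. Fyb2, an adaptor protein, and A330070K13Rik, a noncoding transcript, completed the list at -2.15 and -1.95, together with Fkbp5 (-1.84), described next. For all 15 genes the difference of MREmx1-cre from dflox was called and that of GREmx1-cre from dflox was not.

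Corticosteroid-induced genes are the textbook responders to GR and MR. Of 28 tested, 7 were called, all lower in MREmx1-cre, and none higher (25%, against 9.33% of all genes), with a median difference of -0.11 against 0.01 over all genes tested. Of the 7 calls, 5 were kept whichever array was left out and 5 without both of the arrays that stood apart, and 4 members were called after scaling to the median. Fkbp5, a co-chaperone that restrains the receptors' hormone binding, had levels of -1.37, -1.03, -1.10 and -0.82 in GREmx1-cre and of -3.16, -2.77, -2.89 and -2.87 in MREmx1-cre. The groups did not overlap, and the difference was -1.84 ± 0.21 (3.58-fold; limma, adjusted p = 0.000291), with 2 other probes at -1.51 and -1.48. The dflox arrays ran from -2.10 to -0.88, over the range of GREmx1-cre, and the GRMREmx1-cre mean was -3.26.

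Rasd1, a dexamethasone-inducible small GTPase, had levels of 0.96, 0.88, 0.75 and 0.96 in GREmx1-cre and of -1.03, -0.88, -0.24 and -0.58 in MREmx1-cre (-1.57 ± 0.20; 2.97-fold; adjusted p = 0.00059). Its dflox mean was 0.90, and its GRMREmx1-cre mean of -2.10 lay below all MREmx1-cre arrays. The transcription factor Cebpd differed by -0.97 ± 0.18 (adjusted p = 0.00509), with 2.94 to 3.10 in GREmx1-cre and a wider 1.5 to 2.56 in MREmx1-cre. Smaller differences were called for the transcriptional repressor Bcl6 (-0.58), the growth factor receptor inhibitor Errfi1 (-0.37), the stress protein Sesn1 (-0.33) and the transcription factor Klf9 (-0.28), of which the calls of Klf9 and Bcl6 were lost in 10 and 2 of the 15 leave-outs.

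Classical targets were also found among the members not called between the knockouts. Sgk1, the serum- and glucocorticoid-induced kinase, had means of 2.98 in GREmx1-cre and 3.10 in MREmx1-cre against 3.82 in dflox, a difference between the knockouts of 0.12 ± 0.18 (adjusted p = 0.743). It was called below dflox in each of them, by -0.83 in GREmx1-cre and -0.71 in MREmx1-cre. Tsc22d3, the leucine zipper protein GILZ, differed by -0.18 (adjusted p = 0.265), Per1, a clock gene, by -0.29 (adjusted p = 0.402) and the kinase Pdk4 by -0.39 (adjusted p = 0.0514). Tsc22d3 was called without GREmx1-cre replicate 1 (-0.28; limma, adjusted p = 0.0491), and Pdk4 without MREmx1-cre replicate 1 (-0.52; adjusted p = 0.00453). Sgk1 kept no fixed sign, since without MREmx1-cre replicate 3 its difference was -0.01. The mean over the 28 genes, relative to all arrays, was 0.22 to 0.36 on dflox, -0.01 to 0.18 on GREmx1-cre, -0.32 to 0.02 on MREmx1-cre and -0.32 to -0.26 on GRMREmx1-cre arrays. The ranges of the single knockouts overlapped, and the range of dflox lay above both.

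GR and MR share a palindromic response element, taken here as GNACA and TGTNC with any 3 bases between them and N for any base. It was searched in the 250 bases before the start of each gene in the RefSeq promoter table (build GRCm38.p6), on both strands, which are equivalent for a palindrome. The letters were found in 127 of 32851 promoters (0.387%), in 3 of 697 genes called higher in MREmx1-cre (0.430%) and in 3 of 614 called lower (0.489%), shares near that of all promoters. The 3 called lower, Fyb2, Serpina3c and Serpina3n, are shown with the element in capitals, 5′ to 3′ on the strand of the gene, because they are the genes lower in the MR knockout whose promoters hold it.
Fyb2: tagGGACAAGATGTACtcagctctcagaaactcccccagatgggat
Serpina3c: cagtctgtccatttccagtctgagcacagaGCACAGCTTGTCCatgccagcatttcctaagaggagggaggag
Serpina3n: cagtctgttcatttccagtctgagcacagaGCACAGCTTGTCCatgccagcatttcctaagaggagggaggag
The Fyb2 window is chr4:104913311-104913356 on the plus strand, with the element 247 to 235 bases before the start. The Serpina3c window is chr12:104153905-104153977 on the minus strand (element 75 to 63 bases before the start) and the Serpina3n window chr12:104406600-104406672 on the plus strand (78 to 66 bases before the start). These 73-base windows are identical at 72 positions. Of the 7 corticosteroid-induced genes called, 5 were in the promoter table and 0 of them held the letters in the window searched. A match is a description of the sequence only.

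The levels that go with these windows were as follows. Fyb2 had -2.99, -2.98, -3.31 and -3.44 in GREmx1-cre and -5.51, -4.91, -5.28 and -5.60 in MREmx1-cre, so that it was 4.43-fold lower in the MR knockout (-2.15 ± 0.30; adjusted p = 0.000883). Serpina3n, a serine protease inhibitor that astrocytes raise on injury, had 0.02, 0.52, 0.18 and 0.06 in GREmx1-cre and -1.13, -0.93, -0.74 and -1.10 in MREmx1-cre (-1.17 ± 0.16; 2.25-fold; adjusted p = 0.000801). Serpina3c was dim, well above background on 3 of 4 GREmx1-cre and 0 of 4 MREmx1-cre arrays, and at least 2.38-fold lower in MREmx1-cre. The Serpina3 genes are close copies, and their probes may share signal.

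The 4 fields of principal neurons were examined through their marker genes. In RNA of whole tissue, fewer cells of a type and less RNA per cell cannot be told apart. Of 22 dentate granule cell markers tested, 2 were called higher and 9 lower in MREmx1-cre (50%, against 9.33% of all genes tested). The median of the list was -0.14. Of these 11 calls, 7 were kept whichever array was left out, and without both arrays that stood apart 7 were kept and the median was -0.01. Besides Dsp, the calcium-binding protein gene Calb1 was lower, with 3.45 to 3.55 in GREmx1-cre and 1.87 to 2.32 in MREmx1-cre (-1.46 ± 0.11; 2.75-fold; adjusted p = 1.51e-05). The matrix ligand Npnt (-1.24), the opioid precursor Penk (-0.88), the complement-related synaptic protein C1ql2 (-0.56) and the immediate early gene Jun (-0.58) were also lower.

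Other dentate markers did not follow. Rasl10a, a small GTPase, was higher in MREmx1-cre (0.55 ± 0.09; 1.46-fold), as was Pdyn, the dynorphin precursor (0.53), whose call was lost in 10 of the 15 leave-outs. Prox1, the transcription factor that defines granule cells, had overlapping groups and a difference of -0.18 ± 0.14 (adjusted p = 0.478). The mean over the 22 markers was -0.16 to -0.07 on the MREmx1-cre arrays and 0.07 to 0.35 on the GREmx1-cre arrays. The medians over the same markers overlapped, at -0.10 to 0.0003 on the MREmx1-cre arrays and -0.01 to 0.22 on the GREmx1-cre arrays.

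Markers of immature granule neurons and progenitors were higher in MREmx1-cre where they were called. Of 15 tested, 4 were called higher and 0 lower (26.7%, against 9.33% of all genes tested). The median was 0.23 (0.02 with normexp), and the members ran from -0.57 to 0.71. Of the 4 calls, 3 were kept in all leave-outs but 2 without both arrays that stood apart. The mean over the list overlapped, at -0.22 to 0.06 on GREmx1-cre arrays and -0.05 to 0.14 on MREmx1-cre arrays. Sox11, a transcription factor of newborn neurons, had -0.34 to 0.05 in GREmx1-cre and 0.30 to 0.68 in MREmx1-cre (0.71 ± 0.09; 1.64-fold; adjusted p = 0.000656). Stmn1, which destabilises microtubules, differed by 0.39 ± 0.05. Dcx, doublecortin, differed by 0.38, and its call was lost in 11 of the 15 leave-outs.

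CA3 and CA2 pyramidal markers were lower in MREmx1-cre where they were called, with a single exception. Of 12 CA3 markers, 5 were called lower and 0 higher (41.7%, against 9.33% of all genes tested). The median of the list was -0.36, and all 5 calls were kept in all leave-outs and without both arrays. Homer3, a postsynaptic scaffold, was -0.67 to -0.40 in GREmx1-cre and -2.17 to -1.85 in MREmx1-cre (-1.51 ± 0.12; 2.85-fold), but lies among the neighbours of Nr3c2. The others were the transcription factor St18 (-0.70), the granin Chgb (-0.42), the RNA-binding protein Elavl2 (-0.41) and the kainate receptor subunit Grik4 (-0.37). The mean over the 12 CA3 markers was 0.17 to 0.27 on GREmx1-cre arrays and -0.28 to -0.15 on MREmx1-cre arrays.

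Of 17 CA2 markers, 7 were called lower and 1 higher in MREmx1-cre (47.1%, against 9.33% of all genes tested). The median of the list was -0.31, and 6 of the 8 calls were kept in all leave-outs. Amigo2, an adhesion protein used to define CA2, had -1.75, -1.76, -1.78 and -1.58 in GREmx1-cre and -2.80, -3.19, -3.61 and -3.31 in MREmx1-cre (-1.51 ± 0.19; 2.85-fold; adjusted p = 0.000532). Necab2, a neuronal calcium-binding protein, was lower by a factor of 2.01 (-1.01), and Pcp4, a calmodulin regulator, by -0.31. Vcan, a matrix proteoglycan, was the member called higher (0.34). The other 9 CA2 markers were not called, among them Rgs14, a regulator of G protein signalling, at -0.21.

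In CA1, Spink8 and Lefty1, a nodal antagonist (-1.20 ± 0.21; 2.29-fold), and Fibcd1 (-0.40) were lower in MREmx1-cre, and Wfs1, a protein of the endoplasmic reticulum, was higher (0.77 ± 0.10; 1.71-fold). Of the CA1 list of 13, 4 were called (30.8%, against 9.33% of all genes tested), and all 4 calls were kept in all leave-outs. The list had a median of -0.03, and of 0.0021 after scaling to the array median, so its median had no fixed sign. The mean over the 13 markers was 0.10 to 0.21 on GREmx1-cre arrays and -0.17 to 0.04 on MREmx1-cre arrays, without overlap.

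**Figure D3:**
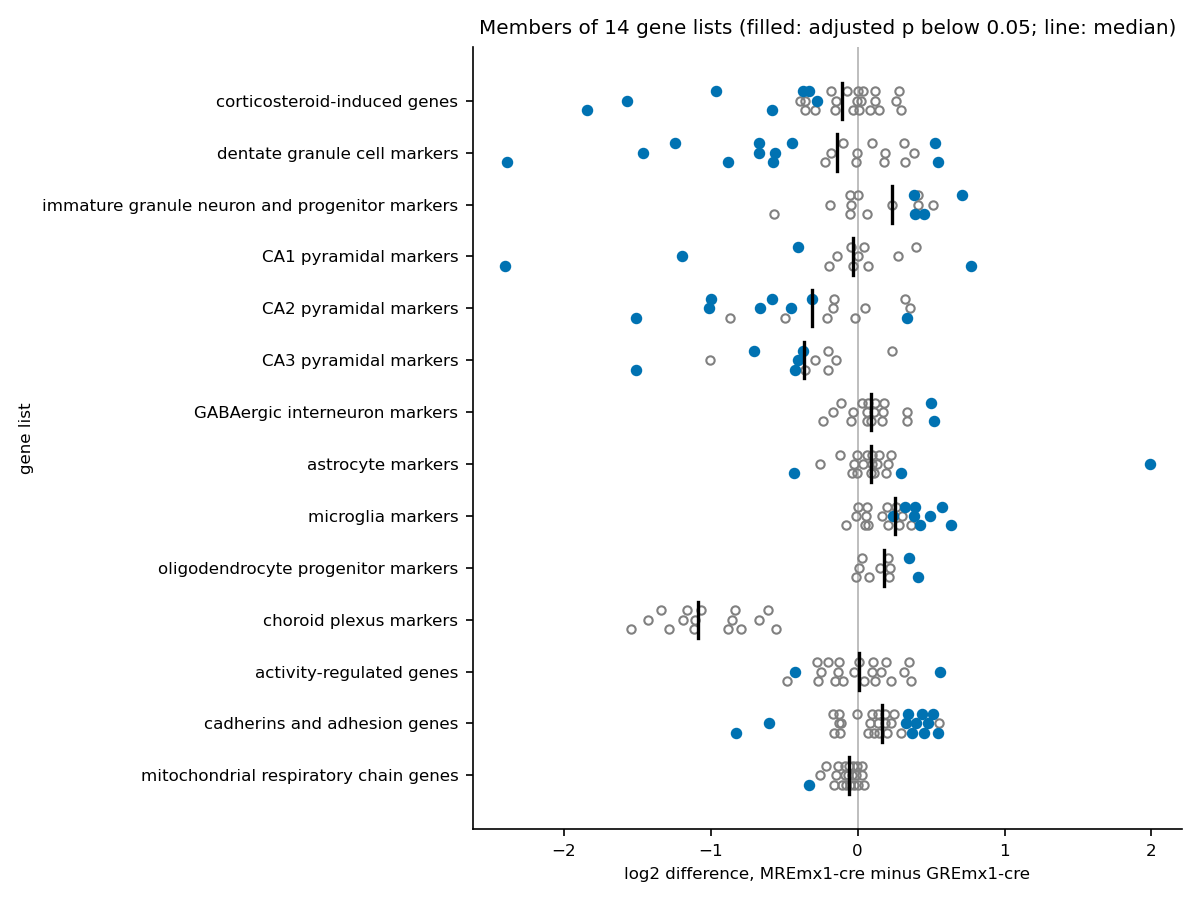
Differences of the tested members of 14 gene lists: the x axis is the log2 difference MREmx1-cre minus GREmx1-cre, the y axis the list, filled points are called genes (adjusted p below 0.05), open points the others, and the line is the median. The medians of the CA3, CA2 and dentate lists lie below 0 and those of microglia and immature neuron markers above 0, and all choroid plexus markers are open points on the left.

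Among glia, microglia markers were higher in MREmx1-cre where they were called. Of 22 tested, 8 were called higher and 0 lower (36.4%, against 9.33% of all genes tested), with a median of 0.25. Of the 8 calls, 7 were kept in all leave-outs, and 5 without both arrays that stood apart. Gpr34, a lysophosphatidylserine receptor, had -1.36, -1.26, -1.24 and -1.39 in GREmx1-cre and -0.63, -0.66, -0.76 and -0.66 in MREmx1-cre (0.63 ± 0.06; 1.55-fold; adjusted p = 3.98e-05). The dflox mean of -1.0 lay between the knockouts, and each was called against it in its own direction. Cd53, a tetraspanin, differed by 0.57, P2ry12, the purine receptor of resting microglia, by 0.49, Siglech by 0.42, Itgam by 0.39, Fcer1g by 0.38, the protease Ctss by 0.32 and Tyrobp by 0.24.

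Other microglia markers were not called. C1qa, a subunit of the first complement component, differed by 0.06 ± 0.07 with overlapping groups, and Csf1r, the growth factor receptor of microglia, and Tmem119, a surface marker, by 0.06 and 0.07. The mean over the 22 markers was -0.18 to -0.09 on GREmx1-cre arrays, 0.08 to 0.14 on MREmx1-cre arrays, -0.21 to -0.08 on dflox arrays and 0.16 to 0.35 on GRMREmx1-cre arrays. Among 17 genes of activated microglia, Lpl was the 1 called (5.88%, against 9.33% of all genes tested).

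Astrocyte markers had 2 calls higher and 1 lower of 20 (15%, against 9.33% of all genes tested), of which only that of Etnppl was kept in all leave-outs. Reactive astrocyte genes had 2 higher and 3 lower of 16 (31.3%). Serpina3n, S100a10 and Ptgs2 (-0.61), the inducible cyclooxygenase, were lower, and Cd14 (0.40) and Osmr (0.39) higher. Cd14 lies among the neighbours of Nr3c1. Oligodendrocyte progenitor markers had 2 higher of 10 (20%), including the proteoglycan Cspg5 (0.35). Interneuron markers had 2 higher of 19 (10.5%), a share near the 9.33% of all genes tested. The call of Nos1 (0.50), the neuronal nitric oxide synthase, was kept in all leave-outs. The mean over the interneuron markers overlapped, at -0.14 to -0.01 on GREmx1-cre arrays and -0.11 to 0.20 on MREmx1-cre arrays.

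Markers of tissue bordering the hippocampus and of other cells were counted next. Of 17 oligodendrocyte and myelin markers 1 was called (5.88%), of 21 endothelial and mural markers 2 (9.52%) and of 14 meningeal and perivascular markers 1 (7.14%). Of 18 striatum and neocortex markers 1 was called (5.56%) and of 6 red blood cell genes 1 (16.7%). Among these calls, that of Etv1 (0.38) in the cortical list was kept in all leave-outs. Thalamus and habenula markers had 3 of 11 called higher (27.3%, against 9.33% of all genes tested), Nwd2 (0.52), Plekhg1 (0.54) and Lef1 (0.23). None of the 16 choroid plexus markers was called by limma, although their median was -1.09. An unadjusted p below 0.05 was found for 0 of the 16, against 24.4% of all genes tested. Ttr, transthyretin, was 3.94 to 4.77 on the other MREmx1-cre arrays and -2.58 on replicate 2. Without that array the median of the list was 0.10.

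**Figure D4:**
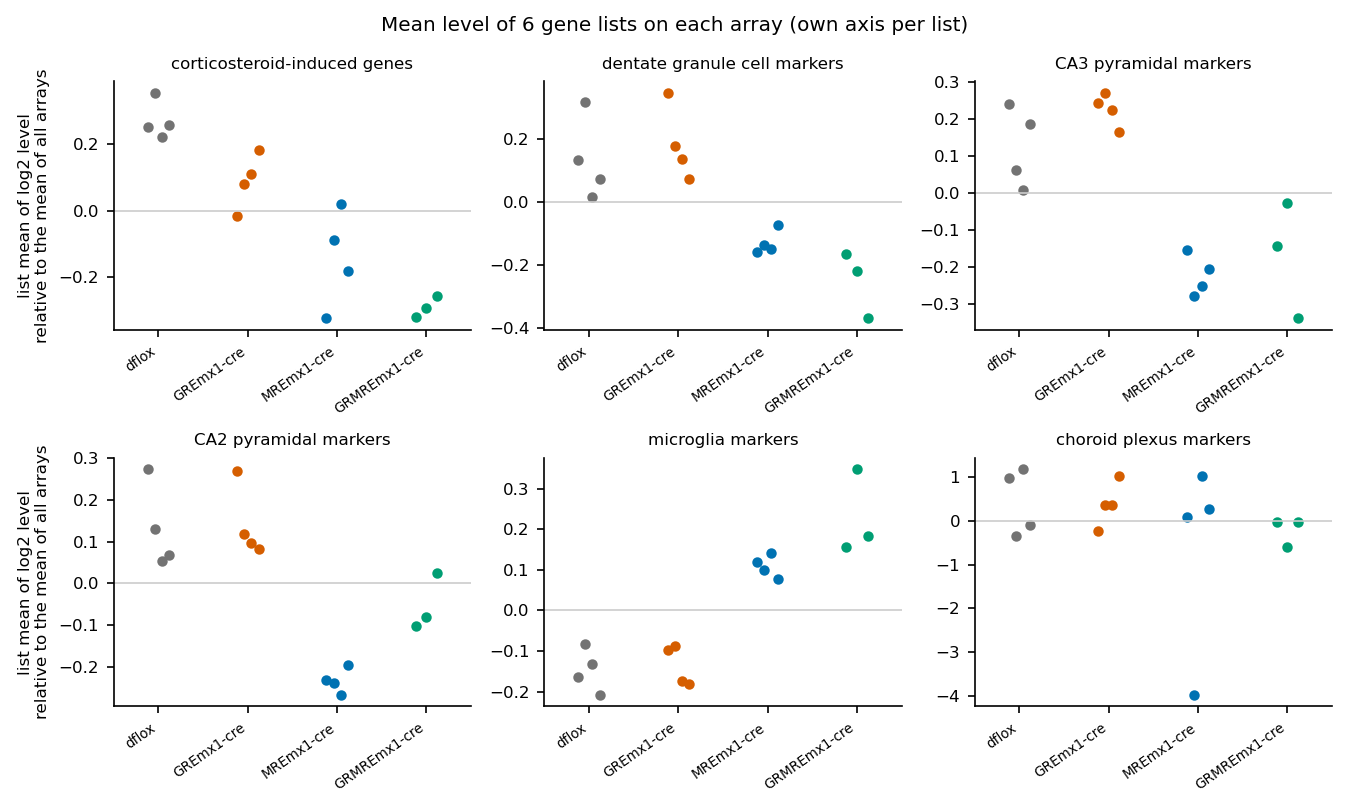
Mean level of 6 gene lists on each array: the y axis is the mean over the list's tested members of the log2 level relative to the mean of all arrays (own scale per list), the x axis the 4 groups, and points are arrays. The MREmx1-cre and GREmx1-cre arrays do not overlap for dentate, CA3, CA2 and microglia markers, they do for the corticosteroid-induced list, and MREmx1-cre replicate 2 lies at -3.98 for choroid plexus. Lists not shown also had array means without overlap, among them CA1 markers, synaptic vesicle and scaffold genes and ionotropic glutamate receptors.

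Secreted signals and their antagonists were among the larger differences. In the BMP, activin and TGF-beta family, 7 of 32 genes were called higher and 4 lower in MREmx1-cre (34.4%, against 9.33% of all genes tested). The median of the list was 0.05, and 9 of the 11 calls were kept in all leave-outs. Antagonists that bind the ligands outside the cell were lower: Grem1, and Fst, follistatin (3.02-fold lower), whose fit rested on 3 GREmx1-cre arrays because the spot of replicate 1 was an outlier and left out. Ligands went each way, with Bmp3 (1.38) and Gdf10 (0.55) higher and Tgfb2 (-0.61) lower. The receptor Tgfbr1 was higher in MREmx1-cre, with -0.45 to -0.24 in GREmx1-cre and 0.12 to 0.30 in MREmx1-cre (0.60 ± 0.07; 1.52-fold; adjusted p = 0.000458). Relative to dflox, it was called lower in GREmx1-cre (-0.32) and higher in MREmx1-cre (0.28). With the mean of all its probes, the call of Tgfbr1 between the knockouts was lost (limma, adjusted p = 0.364). The target gene Id2 was higher as well (0.49).

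The Wnt pathway list had 5 genes higher and 4 lower of 27 (33.3%, against 9.33% of all genes tested), with a median of 0.03. All 9 calls were kept in all leave-outs, 7 without both arrays that stood apart. Dkk2 and Rspo2, an R-spondin that strengthens Wnt signalling (1.05 ± 0.11; 2.07-fold), were higher, as was Rspo1 (1.09), a gene outside the list that was chosen after its values were seen. Nkd2, an intracellular inhibitor (-1.78; 3.45-fold), the ligand Wnt9a (-1.33; 2.51-fold) and the R-spondin receptor Lgr5 (-1.12) were lower. Frzb, a secreted Wnt-binding protein also chosen after its values were seen, had 0.04 to 0.19 in GREmx1-cre and -1.24 to -1.07 in MREmx1-cre (-1.31 ± 0.08; 2.48-fold; adjusted p = 4.9e-06).

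Retinoic acid genes had 4 calls higher and 1 lower of 18 (27.8%, against 9.33% of all genes tested), 4 of the 5 kept in all leave-outs. Besides the synthesising enzyme Aldh1a3, the degrading enzyme Cyp26b1 (0.62 ± 0.14; 1.54-fold) and the nuclear receptor Rxrg (1.06 ± 0.20; 2.09-fold) were higher in MREmx1-cre. The binding protein Crabp1 was lower (-1.22; 2.33-fold), so that a synthesis gene, a degradation gene and a receptor gene moved together and a cytosolic carrier the other way.

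Axon guidance genes were called in equal numbers in each direction, 7 higher and 7 lower of 46 (30.4%, against 9.33% of all genes tested). Of the 14 calls, 9 were kept in all leave-outs. The paired ligands Slit1 and Slit2 had opposite signs. Slit1 was 0.17 to 0.43 in GREmx1-cre and -0.66 to -0.45 in MREmx1-cre (-0.83 ± 0.08; 1.78-fold; adjusted p = 0.000122). Slit2 was 0.93 to 1.08 in GREmx1-cre and 1.81 to 2.05 in MREmx1-cre (0.94 ± 0.11; 1.92-fold; adjusted p = 0.000357). Their receptors also went each way, with Robo3 (-1.39 ± 0.17; 2.62-fold) and Robo1 (-0.45) lower and Robo2 (0.40) higher. The netrin receptor Dcc was higher (0.49).

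Cadherins and adhesion genes had 9 calls higher and 2 lower of 32 (34.4%, against 9.33% of all genes tested), with a median of 0.17. Of the 11 calls, 7 were kept in all leave-outs and 5 without both arrays. Ncam2, a neural adhesion molecule (0.51 ± 0.06; adjusted p = 0.000309), and the cadherin Cdh4 (0.44) were higher, and the cadherin Cdh12 (-0.83) and the protocadherin Pcdh20 (-0.61) lower. Matrix and basement membrane genes had 1 higher and 2 lower of 33 (9.09%), a share near that of all genes.

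Receptors and channels of neurons were called in each direction. Ionotropic glutamate receptor genes had 4 higher and 3 lower of 24 (29.2%, against 9.33% of all genes tested). Of the 7 calls, 3 were kept in all leave-outs. The largest was Grin3a, an NMDA receptor subunit that lowers calcium entry, with 1.02, 1.13, 1.09 and 1.03 in GREmx1-cre and 2.14, 2.02, 1.85 and 1.85 in MREmx1-cre (0.90 ± 0.12; 1.86-fold; adjusted p = 0.000653). The AMPA receptor partner Cacng3 was also higher (0.42), and the kainate receptor partner Neto1 lower (-0.35). The presynaptic metabotropic receptor Grm2 was lower (-0.92; 1.90-fold). Among 12 GABA-A receptor subunits, 1 was called higher and 1 lower (16.7%), and both calls were kept in all leave-outs. The lower was Gabra5, the subunit of extrasynaptic receptors in hippocampus (-0.48 ± 0.08, 1.39-fold).

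Potassium channel genes had 5 higher and 3 lower of 38 (21.1%, against 9.33% of all genes tested). Of the 8 calls, 5 were kept in all leave-outs and 3 without both arrays. Kcnf1, a silent modulatory subunit, had 0.94 to 1.23 in GREmx1-cre and 1.86 to 1.94 in MREmx1-cre (0.77 ± 0.09; 1.70-fold; adjusted p = 0.000447), whereas Kcnip2, a partner of transient potassium channels, was lower (-0.67 ± 0.09). Of 15 calcium channel subunit genes, 3 were called (20%). Cacna1g, a T-type channel, was higher (0.60, 1.51-fold), as was Cacnb4 (0.39), and Cacna1a lower (-0.44). Cacna1a lies among the neighbours of Nr3c2. Synaptic vesicle and scaffold genes had 3 higher and 5 lower of 24 (33.3%) and a median of -0.13. Camk2b (-0.53) and Nptx1 (-0.51) were the lowest of those called. Of the 8 calls, 5 were kept in all leave-outs but 2 without both arrays.

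Htr4, a serotonin receptor, was at least 2.60-fold lower in MREmx1-cre, well above background on 3 GREmx1-cre arrays and on no MREmx1-cre array, and was the 1 call among 13 serotonin genes (7.69%). Tph2, the enzyme of neuronal serotonin synthesis, was not called between the knockouts (-0.45; adjusted p = 0.104), with means of -4.11 in GREmx1-cre, -4.56 in MREmx1-cre and -5.14 in dflox. It was called without MREmx1-cre replicate 4 (-0.57; limma, adjusted p = 0.0454). Of 21 neuropeptide and opioid receptor genes 5 were called (23.8%, against 9.33% of all genes tested). Tacr1, the substance P receptor (1.02 ± 0.22; 2.02-fold), Sstr1 (0.52) and Sstr2 (0.41) were higher and the peptide Nmb (-0.63) and the oxytocin receptor Oxtr lower. Oxtr was at least 2.07-fold lower, well above background on 2 GREmx1-cre arrays and no MREmx1-cre array, and its call was lost in 6 of the 15 leave-outs. Without both arrays that stood apart, 1 of the 5 peptide receptor calls was kept. Crhbp, which binds corticotropin-releasing hormone, was higher in MREmx1-cre (0.46), with its call lost in 2 leave-outs.

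Activity-regulated genes had 1 higher and 1 lower of 23 (8.70%, against 9.33% of all genes tested), neither kept in all leave-outs, and circadian clock genes 1 and 1 of 16 (12.5%), also not kept. Of 22 mitochondrial respiratory chain genes 1 was called (4.55%), of 19 cholesterol and fatty acid synthesis genes 1 (5.26%) and of 17 heat shock genes 2 (11.8%), Hspb3 among them. None of 20 interferon-stimulated and MHC class I genes and none of 21 p53 and apoptosis genes was called by limma, with medians of 0.04 and 0.08. An unadjusted p below 0.05 was found for 3 of the 20 and 6 of the 21, against 24.4% of all genes tested.

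The chromosomes around the receptor genes were described separately, because the lines differ there by design. Among the 100 tested genes with a symbol on either side of Nr3c2, 64 of 200 were called, 37 higher and 27 lower in MREmx1-cre (32%, while among 15543 genes with a symbol elsewhere it was 10.5%), and 48 of the 64 were kept in all leave-outs. The share was 20% at 1 to 25 genes away, 24% at 26 to 50, 40% at 51 to 75 and 44% at 76 to 100. Beyond these neighbours it was 22% of the next 100 genes on the chromosome, 11% of the 100 after them and 9.81% of the remaining 418. Among the neighbours of Nr3c1, 20 of 200 were called (10%), 16 higher and 4 lower, and 10 were kept in all leave-outs. Beyond the neighbours of Nr3c1 the share was 21% of the next 100 genes on its chromosome and 14.6% of the 96 after them. Of the remaining 5 genes, 2 were called.

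**Figure D5:**
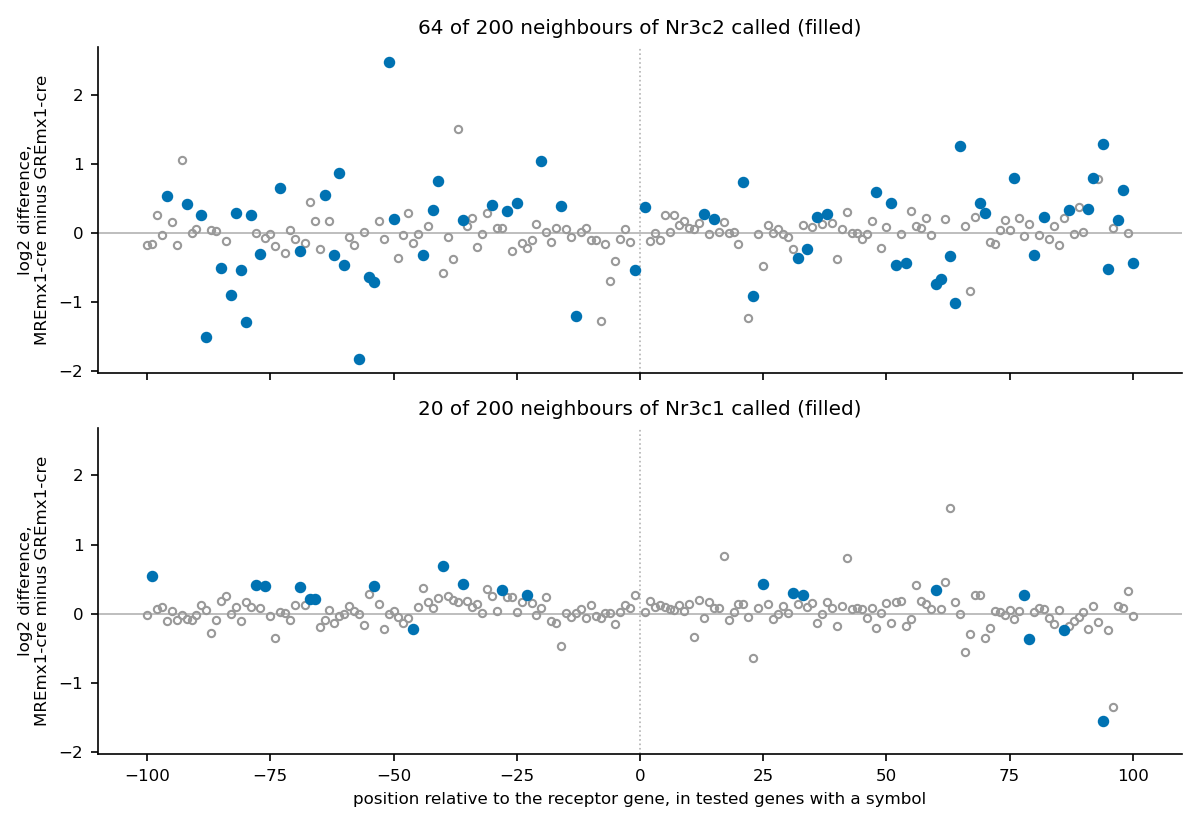
Differences of the neighbours of Nr3c2 (top) and Nr3c1 (bottom): the x axis is the position in tested genes with a symbol relative to the receptor gene, the y axis the log2 difference MREmx1-cre minus GREmx1-cre, and filled points are called genes. Called genes are 64 of 200 around Nr3c2, most of them over 50 genes away, and 20 of 200 around Nr3c1.

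For the largest differences near Nr3c2, dflox lay beside MREmx1-cre. Ocel1, an occludin-related gene, had 1.37, -0.70, -0.82 and -0.68 in GREmx1-cre and 2.15, 2.35, 2.32 and 2.25 in MREmx1-cre, beside 2.14 to 2.26 in dflox and 2.23 to 2.38 in GRMREmx1-cre (2.48 ± 0.37; 5.56-fold; adjusted p = 0.00132). The array at 1.37 was again GREmx1-cre replicate 1, without which the difference was 3.0. Slc5a5, the iodide transporter, had -2.69, -1.71, -1.83 and -1.51 in GREmx1-cre and -3.95 to -3.63 in MREmx1-cre, with a dflox mean of -3.52 (-1.82 ± 0.22; 3.52-fold). Zfp423, a zinc finger factor, was higher in MREmx1-cre (1.29; 2.44-fold), as was Klf1, an erythroid factor (1.26), a dim probe whose call was lost in 10 leave-outs. Homer3, described with the CA3 markers, had dflox between the knockouts, and they were called against it in opposite directions.

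Near Nr3c1 the differences were smaller. The clustered protocadherins Pcdhb3 (0.69 ± 0.10; 1.62-fold) and Pcdhb7 (0.43) and Nrep, a neuronal regeneration protein (0.54), were the largest towards MREmx1-cre. Protocadherins of this cluster are close copies, and their probes may share signal. In the other direction, Htr4 is among the neighbours of Nr3c1 and had the largest difference. It was followed by Camk2a, the kinase subunit of excitatory synapses (-0.37), Csnk1a1, a casein kinase (-0.23), and Zmat2, a zinc finger protein (-0.23), with calls lost in 10, 12 and 6 of the 15 leave-outs.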

How the data were processed

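RNA of whole hippocampus was labelled with Cy3 and hybridised to 1-colour Agilent mouse arrays, and the scans were read with Agilent Feature Extraction, version 12.0 according to the submitters' processing notes. The deposited intensity values are that software's processed signals, background-corrected and detrended within each array per the file headers, with no scaling between arrays. The deposited flags per spot (control type, well above background, saturated, outlier) are given by the file headers as well and have no unit. The value table of the series held the same processed signals on all 45018 spots of each array. The original build of the array design was mm9, per the file headers, so gene positions are not given.

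From these values, log2 of the processed signal minus the array's 75th percentile over spots that are not controls was computed, after 1281 outlier spots over all arrays had been left out. Probes were named through their accession in the RefSeq table (GRCm38.p6): of 41174 probes, 28223 had 1 symbol, 0 several and 12951 none. Of each gene, the probe with the highest mean over all arrays was kept, among probes well above background on at least 3 of the 15 arrays. Of 701 called genes with several probes, the probes of 101 differed in sign. A model of group means was fitted over all 15 arrays with 11 residual degrees of freedom (limma 3.58.1 in R 4.3.3), and p-values were adjusted by Benjamini-Hochberg over 22872 genes. The procedure was tested on simulated data. Tables and figures were made with Python 3.11.15, pandas 2.3.3 and matplotlib 3.10.9. The number of arrays, 4 in each knockout, limits the precision.

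The members and the 42 gene lists were chosen with earlier results of these data known, so no list is independent evidence. Named genes were both receptors, the 15 largest differences in each direction as described with them, the 3 largest in each direction among the neighbours of each receptor gene by the same rule, and from each list the members of lowest adjusted p, at most 4. The other list members given with values, and Crnde, Cyp4f15, Ccl17, Frzb, Rspo1 and Serpina3c, were named after their values had been seen. Some genes that the rule takes are not reported here. Alternatives were other normalisations and background models, other filters, other choices of probe, a replicate block and leaving out arrays. The files hold no mean signal, so normexp was run on the median signal and median background with an offset of 50. A replicate number is the position on the slide. The deviations of same-numbered GREmx1-cre and MREmx1-cre arrays from their group means correlated by 0.05, 0.09, 0.03 and 0.08, so the numbers were not taken to pair the arrays.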

Additional observations from a re-analysis of the deposited data

Results flagged for a closer look

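In 20 of 375 groups of 4 arrays examined (5.33%, where chance flags about 1 in 20), 1 array stood far from the other 3 relative to the range of the group. GREmx1-cre replicate 1 was that array in 5 of them. Its level of Ocel1 was 1.37 against -0.82 to -0.68 on the other arrays, that of Rxrg 0.54 against 0.99 to 1.07, and that of Cyp4f15 -1.12 against -0.88 to -0.85. On the same array the mean of thalamus and habenula markers was 0.40 and that of meningeal and perivascular fibroblast markers -0.44, against -0.22 to -0.18 and 0.05 to 0.12, while the median of the thalamus and habenula markers there was -0.19. MREmx1-cre replicate 2 stood apart in 3 groups, with Ttr at -2.58 against 3.94 to 4.77, Nwd2 at 1.15 against 0.91 to 0.93 and Gdf10 at -1.01 against -1.18 to -1.17.

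Among the other flags, MREmx1-cre replicate 1 was the array as often as GREmx1-cre replicate 1, and the rest were spread over arrays. On MREmx1-cre replicate 1, Csnk1a1 was 3.28, Wfs1 4.54 and Pdk4 -0.28, the last above the -0.79 to -0.76 of the other arrays. On the same array the mean of thalamus and habenula markers was 0.17 and that of respiratory chain genes -0.10. On MREmx1-cre replicate 3, Tgfb2 was 0.73 and the mean of heat shock and chaperone genes 0.091. On GREmx1-cre replicate 4, Gm34996 was -1.20, Amigo2 -1.58 and Tgfbr1 -0.24, each the highest of its group. Fibcd1 was lowest at 1.29 on GREmx1-cre replicate 2, and Cacna1g highest at 0.89 on GREmx1-cre replicate 3.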

How the results depend on the processing

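Of the 136 genes named above that were called, 44 were called under every alternative and none changed sign under any of them. The calls of 89 were lost with normexp, 25 without both GREmx1-cre replicate 1 and MREmx1-cre replicate 2, 23 with only the 8 knockout arrays, 13 with the mean of all probes, 11 without a filter on dim probes, 10 with median scaling, 6 with the replicate block and at most 3 in the remaining scalings, filters and fits. The 13 lost with the mean of all probes were Abi3bp, Cacnb4, Camk2a, Csnk1a1, Cspg5, Dach1, Itgam, Klf9, Lef1, Osmr, Plekhg1, Robo2 and Tgfbr1. The count of 2134 called genes was 173 with normexp, 1238 in a fit of only the 8 knockout arrays and 1104 without both of the arrays named. It ran from 1438 (without MREmx1-cre replicate 2) to 2139 over the 15 leave-outs, and was 2050 without the neighbours of the receptor genes. The low count with normexp has a cause that was not tested. The 493 genes with at least 1.5-fold were 122 with normexp and 433 to 507 over the leave-outs. Around Nr3c2 the 64 calls were 16 with normexp, 40 with only the 8 knockout arrays and 53 to 63 over the leave-outs. Around Nr3c1 the 20 calls were 0 with normexp, 12 without a filter, 12 with only the 8 knockout arrays, 8 without both arrays, and 11 (without GREmx1-cre replicate 1) to 22 over the leave-outs, with 13 without MREmx1-cre replicate 1. With the replicate number as a block the count of called genes was 2412 and no named gene's sign turned. In deviations from the group means, 3 of the 4 GREmx1-cre arrays correlated best with the MREmx1-cre array of the same number (replicates 1, 2 and 4; r 0.05, 0.09 and 0.08) and replicate 3 with replicate 2 (0.06 against 0.03), which is a hint from the data and not from the design. Genes that were not called but were under a few alternatives were Tsc22d3 (-0.28 to -0.11 over the alternatives), Pdk4 (-0.52 to -0.32; adjusted p = 0.0317 with the mean-variance trend and 0.0423 with probes above background on all arrays of a knockout) and Tph2 (-0.57 to -0.22). Differences that were not called and that changed sign were those of Sgk1, from 0.22 to -0.0082 (without MREmx1-cre replicate 3), and of Ttr, which was 0.28 without MREmx1-cre replicate 2, 0.12 without both arrays and -2.17 at its lowest. The count against dflox was 105 for MREmx1-cre and 13 for GREmx1-cre with normexp. Among the limits, dim probes near background have differences that depend on the background model, and genes without a symbol, 6927 of those tested, could not be placed in any list or neighbourhood.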
